A study of Mus musculus with 6 samples.

Results

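RNA of 7 peripheral myelin genes was compared between cochleae of Kir2.1-OE and control mice: Mbp, Pmp22, Mag, Mal, Prx, Cnp and Egr2. These 7 genes were picked by symbol, as Schwann cell myelin genes together with Egr2, but with earlier results of these data known. The deposited files hold 24411 gene symbols, and all 7 genes were among the 15303 that passed a filter on low counts. Kir2.1-OE animals were Otof rtTA+/-; Kir2.1+/-, in which rtTA under the Otof promoter, active in hair cells, switches on a tetO transgene carrying the inward rectifier K+ channel Kir2.1 together with tau-lacZ, and controls were littermates of genotype Otof rtTA+/-; Kir2.1+/+. Both genotypes were on the C57BL/6N background, both carried the rtTA allele, and both were exposed to doxycycline (DOX), supplied at 0.5 mg/ml in the water of the mothers. Sensory epithelium was microdissected from the cochlea at postnatal day 9 (P9), frozen and sequenced as poly(A) RNA, with 3 libraries per genotype. Each library was 1 pool of 8 cochleae from 4 mice, so the pool is the replicate. The transgene is driven in hair cells, whereas the genes described here are known from the glia that wrap auditory nerve fibres; the dissected tissue was not sorted.

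In peripheral nerve, Schwann cells wrap single axons and lay down compact myelin, a stack of membranes held together by a small set of very abundant proteins, while channels of cytoplasm and the layer facing the axon carry a further set. The transcription factor Egr2 (Krox20), acting with Sox10, switches on the genes of both sets, and myelination of spiral ganglion fibres proceeds during the days before hearing begins. Mutations of PMP22, EGR2 and PRX cause inherited demyelinating neuropathies in people.

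Libraries held between 35430940 and 41205047 assigned reads, and 3 counts, the least that could be called present, were at most 8.47e-06% of a library. Kcnj2, which encodes Kir2.1, had 3612, 3813 and 2213 normalized counts (counts scaled by the TMM library sizes) in the Kir2.1-OE libraries, given here and below in the order of their replicate numbers, against 235.8, 228.1 and 226.0 in the control libraries, so every library matched its label. The difference was 3.80 ± 0.20 on the log2 scale (SE, adjusted p = 7.04e-05, edgeR quasi-likelihood test with Benjamini-Hochberg adjustment over all genes tested). Kir2.1-OE replicate 3, with the lowest Kcnj2 of its group, had the highest level of all 7 myelin genes. Dissected tissue holds several cell types, and more myelinating cells cannot be told apart from more myelin RNA per cell.

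Myelin RNA was abundant in both genotypes and higher in Kir2.1-OE for most of the genes. A gene was called at an adjusted p under 0.05 with a fold change above 1.5. Prx, Egr2, Mag and Cnp rose, by 1.16, 0.77, 0.72 and 0.67 on the log2 scale, none of the 7 fell, and Mbp, Pmp22 and Mal were not called. This is 4 of 7 genes called higher, against 15.5% of all genes tested, and 0 of 7 lower, against 5.08%. The median of the 7 log2 fold changes was 0.67, and that of all genes was 0.01. Kir2.1-OE and control pools did not overlap for 5 of 7 genes, Kir2.1-OE being above, which held for 31.7% of all genes, and Kir2.1-OE was below without overlap for 0 of 7, against 29.9% of all genes. Against the stricter null of a log2 fold change of 0.6 (glmTreat), 1 of the 7, Prx, was called, against 5.44% of all genes. With upper quartile scaling 3 of 7 were called higher, since Cnp came to 0.58, against 12.4% of all genes. Over all genes, the share of calls that were higher was then 57.9% in place of 75.2%.

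**Figure D1:**
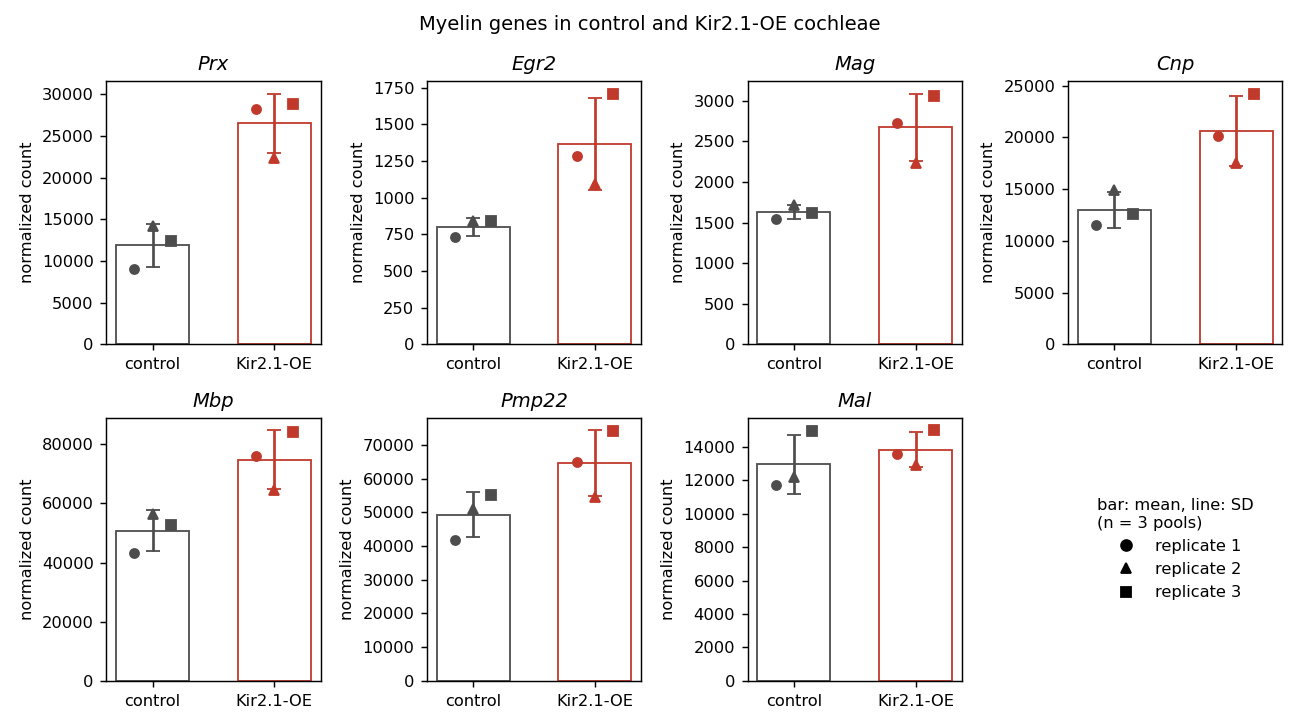
Normalized counts of the 7 myelin genes in control (grey) and Kir2.1-OE (red) pools, with bars at the group mean, lines of ± 1 SD and 3 pools per group. Kir2.1-OE pools lie above all control pools for Prx, Egr2, Mag, Cnp and Mbp, whereas Pmp22 and Mal overlap between groups.

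The sequence just upstream of the 4 genes that rose is shown to let short motifs of factors known to act in Schwann cells be compared among genes that rose together. Each line gives the 250 bases before an annotated start in the RefSeq annotation of GRCm38.p6, read 5′ to 3′ on the strand of the gene. Capitals mark matches to 3 short motifs searched on both strands: GCGNGGGCG for EGR factors, ACAAAG for SOX factors and GGAATG for TEAD factors.
Prx (chr7:27499074-27499323, + strand): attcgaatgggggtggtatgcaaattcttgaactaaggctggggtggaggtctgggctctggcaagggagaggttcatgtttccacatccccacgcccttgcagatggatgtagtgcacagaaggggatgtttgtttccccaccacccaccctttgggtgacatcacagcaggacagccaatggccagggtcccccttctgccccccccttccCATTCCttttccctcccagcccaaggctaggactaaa
Egr2 (chr10:67537619-67537868, + strand): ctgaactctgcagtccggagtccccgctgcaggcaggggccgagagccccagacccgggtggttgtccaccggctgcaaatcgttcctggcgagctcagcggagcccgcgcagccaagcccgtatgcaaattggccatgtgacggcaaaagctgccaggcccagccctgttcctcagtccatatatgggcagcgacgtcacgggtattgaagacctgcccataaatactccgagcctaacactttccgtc
Mag (chr7:30914864-30915113, - strand): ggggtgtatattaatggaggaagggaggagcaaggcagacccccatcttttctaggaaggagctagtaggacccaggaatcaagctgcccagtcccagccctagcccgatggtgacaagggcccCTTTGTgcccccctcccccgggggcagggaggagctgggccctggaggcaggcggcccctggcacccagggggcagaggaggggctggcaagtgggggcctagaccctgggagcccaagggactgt
Cnp (chr11:100574689-100574938, + strand): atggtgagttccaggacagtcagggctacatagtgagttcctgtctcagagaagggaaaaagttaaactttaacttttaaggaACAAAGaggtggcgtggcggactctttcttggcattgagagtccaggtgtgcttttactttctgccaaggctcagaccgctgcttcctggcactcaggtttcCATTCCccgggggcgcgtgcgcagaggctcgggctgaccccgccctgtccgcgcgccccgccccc
Of the 7 genes, 6 had an entry; Mbp had none. Where a gene had several annotated starts (5 for Egr2, 4 for Pmp22 and 3 for Mag), the window shown is that nearest to the start of its longest curated transcript, whereas the shares of all promoters count every annotated start. The TEAD letters stood 37 bases before the start of Prx, 65 before Cnp, 173 before Pmp22 and 89 before Mal, which is 4 of the 6 chosen windows, and 6 of the 15 windows of these genes, beside 12.64% of the 32851 windows of all promoters. The SOX letters stood 126 bases before the start of Mag and 167 before Cnp, 2 of the 6 chosen windows and 3 of the 15, beside 16.46%. The EGR letters were in 0 of the 6 chosen windows, in 0 of the 15 and in 4.7% of all windows. No match overlapped another, and the Egr2 window held none of the 3 motifs. The TEAD letters thus occurred before genes that rose (Prx, Cnp) and before genes that were not called (Pmp22, Mal), and a match is a description of the letters, not of binding.

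Egr2 is the regulator among the genes, a zinc finger factor needed for Schwann cells to begin and to keep myelination (chr10:67535475-67542188, + strand, coordinates here and below in mm10 from GENCODE vM21). It had 1286, 1096 and 1711 normalized counts in Kir2.1-OE pools and 728.4, 837.8 and 837.7 in control pools. All Kir2.1-OE pools were above all controls, and the Kir2.1-OE pools were spread over a wider range. Means were 1364 ± 314.5 and 801.3 ± 63.1 (SD, n = 3 pools each), a log2 fold change of 0.77 ± 0.15 (SE, adjusted p = 0.00248). The call rests on Kir2.1-OE replicate 3: without that pool the log2 fold change was 0.56, under 1.5-fold, with an adjusted p of 0.00264. It was the least abundant of the 7 genes in normalized counts.

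Prx, or periaxin, is a cytoskeletal scaffold of myelinating Schwann cells that links the plasma membrane to dystroglycan through Drp2 and keeps the cytoplasmic channels open (chr7:27499324-27520214, + strand). Its counts were 28231, 22392 and 28873 in Kir2.1-OE and 9032, 14173 and 12327 in control pools. The lowest Kir2.1-OE pool was well above the highest control pool. At 26499 ± 3571 against 11844 ± 2604 normalized counts (SD, n = 3 pools each), the difference was 2.24-fold, or 1.16 ± 0.16 on the log2 scale (SE, adjusted p = 0.000477). Its log2 fold change was at percentile 95.7 of all genes tested and stayed between 1.00 and 1.31 when any pool was left out. Prx was the only one of the 7 to pass the null of 0.6, with an adjusted p of 0.0178 by glmTreat.

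Mag, the myelin-associated glycoprotein, is an adhesion molecule of the Schwann cell membrane that faces the axon (chr7:30899176-30914873, - strand). It was read at 2727, 2237 and 3061 normalized counts in Kir2.1-OE and at 1545, 1715 and 1619 in control pools. Controls lay close together, and all Kir2.1-OE pools were above them. The log2 fold change was 0.72 ± 0.11 (SE, adjusted p = 0.000759), from means of 2675 ± 414.4 and 1627 ± 85.4 (SD, n = 3 pools each). Mag was called whichever pool was left out, with values from 0.59 to 0.81.

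Cnp encodes the phosphodiesterase CNPase, which holds open the cytoplasm-filled parts of the sheath (chr11:100574904-100591729, + strand). Kir2.1-OE pools had 20092, 17566 and 24239 normalized counts and control pools 11499, 14891 and 12580. The groups did not overlap, though the lowest Kir2.1-OE pool, replicate 2, was not far above control replicate 2. Means of 20632 ± 3369 and 12990 ± 1733 (SD, n = 3 pools each) gave a log2 fold change of 0.67 ± 0.13 (SE, adjusted p = 0.00259). Without Kir2.1-OE replicate 3 it was 0.52, under 1.5-fold, with an adjusted p of 0.00639. Cnp shares 154 exonic bases, 4.23% of its exons, with Dnajc7 on the other strand, and reads there could not be assigned by strand since no strand setting is stated in the sources used here. Dnajc7 itself had a log2 fold change of -0.08 (adjusted p = 0.399).

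Mbp, myelin basic protein, seals the cytoplasmic faces of compact myelin and was 39th of all genes by mean normalized count. Kir2.1-OE pools held 75817, 64343 and 84104 normalized counts of it and control pools 43239, 56446 and 52731. The groups did not overlap. The difference of 0.56 ± 0.13 on the log2 scale (SE, adjusted p = 0.00510) was under 1.5-fold, so Mbp was not called, with means of 74755 ± 9923 and 50805 ± 6811 (SD, n = 3 pools each). It came to 0.63 without Kir2.1-OE replicate 2 and to 0.64 without control replicate 2, and was then called. Mbp has 16 annotated transcripts, some of which belong to the longer Golli form that is used outside myelin, and the gene-level counts do not separate them.

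Pmp22, peripheral myelin protein 22, is a small membrane protein of compact myelin (chr11:63128982-63159547, + strand). It had 64912, 54510 and 74121 normalized counts in Kir2.1-OE and 41839, 51110 and 55009 in control pools. Kir2.1-OE replicate 2 lay between the controls, so the groups overlapped. The log2 fold change was 0.39 ± 0.13 (SE, adjusted p = 0.0341), under 1.5-fold, and the exact permutation p of the means was 0.2 (two-sided). Mal, a proteolipid that sorts membrane lipids and proteins in myelinating cells (chr2:127633226-127656695, - strand), had 13598, 12915 and 15002 counts in Kir2.1-OE and 11722, 12210 and 14967 in control pools. The highest control pool nearly equalled the highest Kir2.1-OE pool, and the groups overlapped. The log2 fold change of Mal was 0.09 ± 0.10 (SE, adjusted p = 0.482, exact permutation p of 0.5). For the other 5 genes the exact permutation p was 0.10, the smallest that 3 pools against 3 can give.

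**Figure D2:**
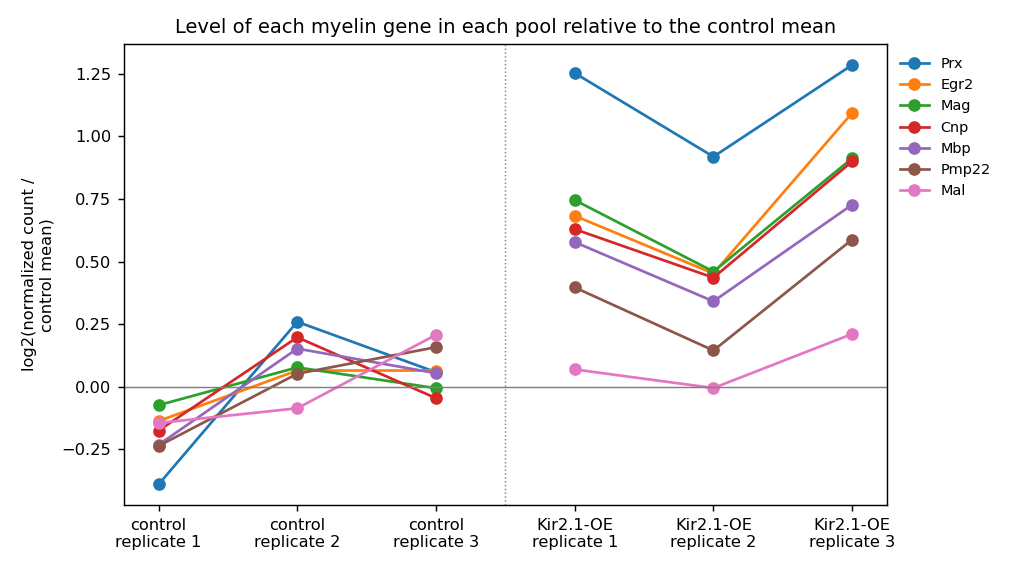
Level of each myelin gene in each pool as log2 of its normalized count over the mean of the 3 control pools; lines join pools of 1 genotype only to guide the eye. Kir2.1-OE replicate 3 is highest and replicate 2 lowest among Kir2.1-OE pools for all 7 genes, and control replicate 1 is lowest among controls.

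The genes moved together over the pools as well as between genotypes. In all 7, Kir2.1-OE replicate 3 was highest, Kir2.1-OE replicate 2 was lowest of its group and control replicate 1 was lowest of its group, an order shared by 779 of 15303 genes (5.09%). The order was noticed after the values were seen. Control replicate 2 was the highest control for 5 of the 7 and replicate 3 for 2. Over the 6 libraries, the highest Pearson r of log2 scaled counts between 2 of the genes was 0.984, for Mbp and Cnp. Mal was the least like the others, with r between 0.489 (with Cnp) and 0.791 (with Pmp22). These correlations describe 6 libraries that also differ in genotype, so part of each is the difference between groups. The 5 genes whose profile was most like the mean profile of the 7 were Pstpip2 (r of 0.997), Lcorl, Cadm4, Ntm and Vat1l, out of 13638 genes compared, of which 678 had r above 0.9. Of these, Ntm and Vat1l rose, with log2 fold changes of 0.99 and 0.82, and Cadm4, the Schwann cell adhesion molecule that binds axonal Cadm3, had a log2 fold change of 0.15 (adjusted p = 0.103).

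Per kilobase of the longest annotated transcript, the control levels ran from 27069 ± 3713 normalized counts for Pmp22 through 10591 ± 1420 for Mbp, 4668 ± 630 for Mal, 4473 ± 597 for Cnp, 2180 ± 479 for Prx and 668.3 ± 35.1 for Mag to 270.2 ± 21.3 for Egr2 (SD, n = 3 pools). Mal and Cnp overlapped over the control pools and the other neighbours in that order did not. In Kir2.1-OE pools the level per kilobase was 7105 ± 1160 for Cnp, 4981 ± 383 for Mal and 4877 ± 657 for Prx. Cnp was then above Mal in every pool, while Prx overlapped Mal. On the median transcript instead of the longest, Egr2 (888.3 ± 70.0) and Mag (848.8 ± 44.6) changed places in controls, so that pair has no fixed order.

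The composition of this myelin RNA was compared within each pool, as the share of each gene in the summed normalized counts of the 7, a measure chosen after the values were seen. Prx made up 13.7, 12.8 and 12.5% of the sum in Kir2.1-OE pools and 7.55, 9.36 and 8.21% in control pools, with means of 13.0 ± 0.61% and 8.38 ± 0.92% (SD, n = 3 pools each), 1.55 times as much. Egr2 was also higher without overlap, at 0.663 ± 0.067% against 0.574 ± 0.031%. The share of Mal was lower in all Kir2.1-OE pools, 6.82 ± 0.49% against 9.28 ± 1.06%, or 0.734 times, and so was that of Pmp22, 31.5 ± 0.48% against 35.1 ± 1.45%. Mbp, the largest share, was at 36.6 ± 0.19% and 36.2 ± 1.08% with overlapping pools (exact permutation p of 0.6), and Mag and Cnp overlapped too (exact permutation p of 0.2 each). Where groups did not overlap the exact permutation p was 0.10. Shares add up to a whole, so a larger share of Prx by itself lowers the others, but they do not depend on how the libraries are scaled. They were taken from counts without correction for transcript length, which moved with genotype. With such a correction from the longest transcript the log2 fold change of Prx (0.53) was no longer above that of Pmp22 (0.62). From the median transcript it was 0.52 for Prx and 0.47 for Pmp22.

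**Figure D3:**
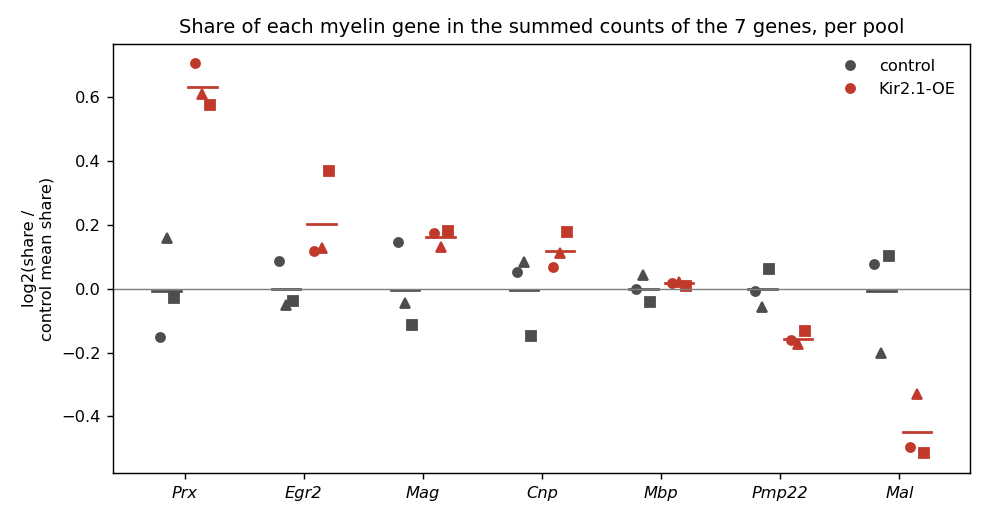
Share of each myelin gene in the summed normalized counts of the 7 genes in the same pool, as log2 over the mean control share, for control (grey) and Kir2.1-OE (red) pools; circles, triangles and squares are replicates 1, 2 and 3, and short lines are group means. Prx lies highest above the control share, Mbp overlaps the controls, and Mal and Pmp22 lie below all of them.

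Transcript length moved with genotype over all genes and touches these results. The median log2 fold change was -0.50 for genes whose longest transcript was under 1000 nucleotides, -0.30 from 1000 to 2000, -0.13 from 2000 to 3000, 0.21 from 4000 to 6000 and 0.81 above 8000. Prx (5433 nucleotides) and Mbp (4797) stood in a class in which 19.8% of genes were called higher, and Mag, Mal, Cnp and Egr2, between 2434 and 2965 nucleotides, in a class in which 4.74% were. Pmp22, the shortest at 1822 nucleotides, stood in a class with 2.76% called higher. When a smooth trend of each library on length and GC content was entered in the fit as an offset, 4 of 7 genes were again called higher, against 6.44% of all genes, and 0 of 7 lower, against 3.42%. They were not the same 4: Egr2 (0.77, adjusted p = 0.00403), Mag (0.67, 0.00224), Cnp (0.59, 0.00720) and Pmp22 (0.62, 0.00649). Prx came to 0.53 (adjusted p = 0.0203) and Mbp to 0.24 (adjusted p = 0.138), both under 1.5-fold, and Mal to 0.17 (adjusted p = 0.212). Taking the median transcript of each gene instead, an alternative added after seeing the data, left 1 of 7 called, Egr2 at 0.80 (adjusted p = 0.00192), against 10.9% of all genes. Prx, Mag, Cnp, Pmp22 and Mbp lay between 0.45 and 0.53 in that fit, all with an adjusted p under 0.05, and Mal was at 0.02. The part of length in the larger change of Prx was not tested further.

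**Figure D4:**
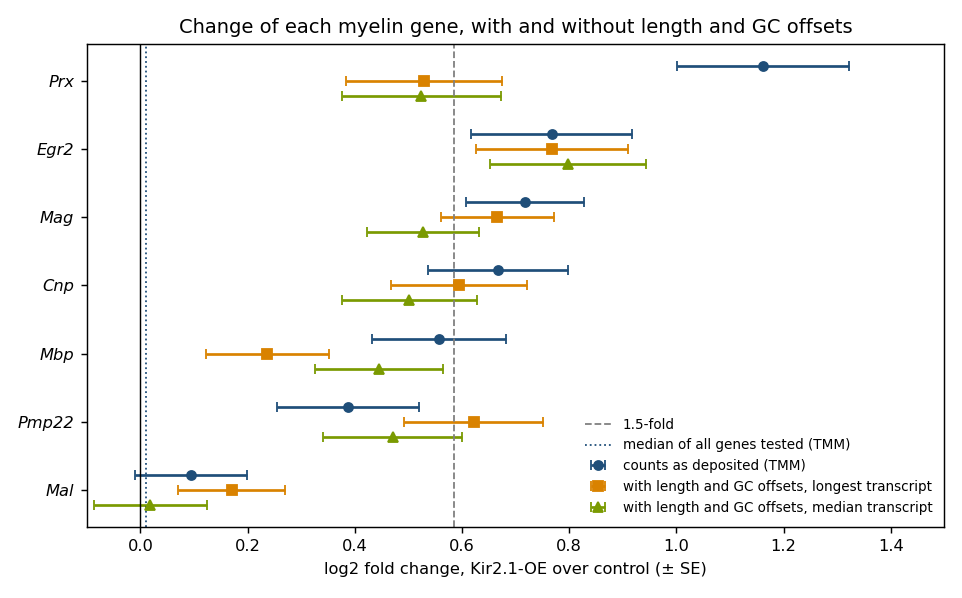
Log2 fold change of each myelin gene, Kir2.1-OE over control, with bars of ± 1 SE, from counts as deposited (circles) and with offsets for transcript length and GC content from the longest (squares) or the median (triangles) transcript; the dashed line is 1.5-fold. With offsets from the longest transcript Prx moves from 1.16 to 0.53, Egr2 stays at 0.77, and Pmp22 moves from 0.39 to 0.62. With the median transcript Prx is at 0.52, Egr2 at 0.80 and Pmp22 at 0.47.

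Genes that work beside the 7 in the sheath differed in how often they were called. Each count here and in the next paragraph stands beside 15.5% of all genes called higher and 5.08% called lower. With the length and GC offsets from the longest transcript these shares were 6.44% and 3.42%. From the median transcript instead they were 10.9% and 5.49%. Among 17 other myelin proteins 2 rose, among them Cldn19 (1.00), a tight junction protein of Schwann cells, 0 fell, and the median was 0.09; this is 11.8% of the list, and 3 of 17 (17.6%) were called with the offsets. Cldn19 had 6813, 5550 and 7597 normalized counts in Kir2.1-OE against 2752, 4169 and 3075, without overlap. Among 20 genes of myelin lipid synthesis 4 rose and 0 fell, among them Fa2h (1.02), which makes the hydroxylated fatty acids of galactolipids, Fasn (0.74) and Elovl6 (0.71), with a list median of 0.25. This was 20% of the list, and 1 of 20 (5%) was called with the offsets. With offsets from the median transcript 5 of 20 (25%) were called higher, and 2 of the 17 other myelin proteins. Fa2h was at 1.02 with the offsets, whereas Fasn turned to -0.26. With offsets from the median transcript Fa2h was at 0.91 and Fasn at 0.77, and both were called higher. The most abundant of these, Scd2, had a log2 fold change of 0.32, under 1.5-fold, and of -0.07 with the offsets.

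Of 18 regulators of Schwann cells 8 rose and 0 fell, with a median of 0.40. The largest were Chd4 (1.10), a chromatin remodeller, Zeb2 (1.09), a repressor that lets Schwann cells mature, Notch1 (1.06), which marks immature cells, and Tead1 (1.04), the nuclear partner of Yap and Taz. With the offsets 3 of the 18 were called, Zeb2 among them at 0.79. Tead1 (0.46), Chd4 (0.42) and Notch1 (0.09, adjusted p = 0.477) then lost their calls. With offsets from the median transcript Tead1 was at 1.07, Chd4 at 1.11 and Notch1 at 1.28. Id2, the most abundant and an inhibitor of myelin genes, had a log2 fold change of -0.38 (adjusted p = 0.00145), under 1.5-fold. With the offsets Id2 was at -0.13 (adjusted p = 0.175), and with offsets from the median transcript at -0.34 (adjusted p = 0.00360). Among 19 genes of signals between axon and glia 7 rose and 0 fell, led by Nfasc (1.70), Cntnap1 (1.63), Cntn2 (1.42) and Gldn (1.40), the last a Schwann cell ligand that gathers Nfasc at nodes. Gldn had 5181, 4327 and 5555 normalized counts in Kir2.1-OE and 1462, 1849 and 2397 in controls. With the offsets 5 of the 19 were called, and Gldn came to 1.24, Cntnap1 to 1.05 and Nfasc to 0.83, while Cntn2 lost its call at 0.61 (adjusted p = 0.184). Of 14 genes through which Schwann cells hold the basal lamina, the side to which periaxin connects, 9 rose and 0 fell, including Utrn (2.03), Lama2 (1.36), Lamc1 (1.15) and Lamb1 (1.11), and 3 were called with the offsets. These transcripts are long, and laminins are also made by other cells of the tissue. Of 9 genes of unmyelinated and immature Schwann cells 3 rose, L1cam (1.84), Ncam1 (1.11) and Scn7a (0.85), and 0 fell. With the offsets L1cam (1.40) was the only one of the 9 called, Ncam1 being at 0.55 and Scn7a at 0.58. L1cam and Ncam1 are also neuronal. With offsets from the median transcript 5 of the 18 regulators and 8 of the 19 axon and glia signal genes were called higher. Of the basal lamina genes 6 of 14 were then called higher, and of the unmyelinated and immature Schwann cell genes 2 of 9.

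**Figure D5:**
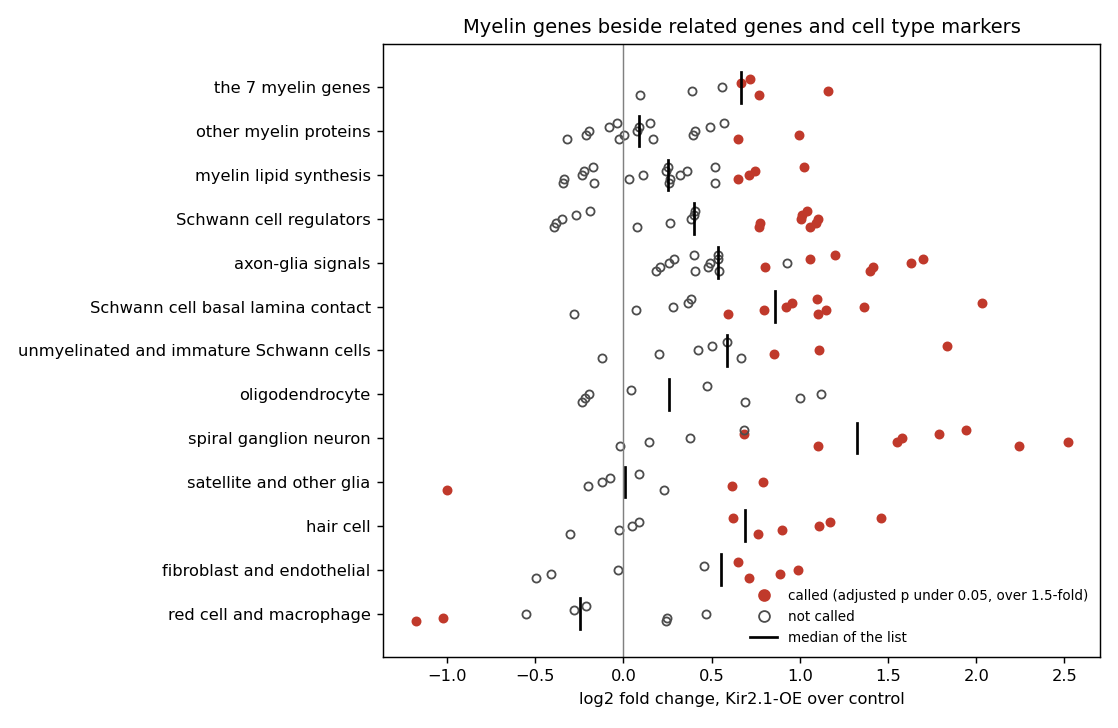
Log2 fold change, Kir2.1-OE over control, of every tested gene of the 7 myelin genes, 6 lists of related genes and 6 lists of cell type markers; filled red points were called, open points were not, and vertical lines are list medians. The myelin genes have a median of 0.67, that of other myelin proteins is 0.09 and that of spiral ganglion neuron markers is 1.32.

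The label of peripheral myelin was checked against the glia of the central nervous system. Of 10 oligodendrocyte markers 8 passed the filter and none was called in either direction by edgeR, while 2 had an adjusted p under 0.05, Myrf and Cldn11, the second of which is also made outside glia in the cochlea. Mog, which oligodendrocytes but not Schwann cells make, had 84.2, 2.998 and 59.2 normalized counts in Kir2.1-OE and 154.5, 17.3 and 1.02 in control pools, against at least 43239 counts of Mbp in every pool. Mobp followed a like spread, from 9.16 to 205.3 counts, and Opalin was at 0 in 5 of 6 pools. The summed counts of the list were 4494 to 5143 in Kir2.1-OE and 4977 to 5730 in controls, of which Cldn11 made up most. In control replicate 3, where Mog stood at 1.02 counts, Mbp was at 52731, so Mbp was present at its usual level with this oligodendrocyte marker near 0.

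Markers of other cells moved with genotype beside the myelin genes. Each count here and in the next paragraph stands beside 15.5% of all genes called higher and 5.08% called lower. With the offsets these shares were 6.44% and 3.42%. Of 12 spiral ganglion neuron markers 8 rose and 0 fell, led by Nefh (2.52), Kif5a (2.24), Nefm (1.94) and Syt2 (1.79), the median was 1.32, and 8 were called with the offsets. The 4 that were not called were Stmn2 (0.68), Tubb3 (0.38), Prph (0.14) and Pvalb (-0.02), the last 3 under the median of the 7 myelin genes. Their summed counts were 56126, 39836 and 87423 in Kir2.1-OE and 29654, 32987 and 24753 in controls, none of the 12 at 0 in any pool. Among Kir2.1-OE pools replicate 3 was highest and replicate 2 lowest, as for the 7 myelin genes. The controls differed in order: the neuron sum was lowest in replicate 3, whereas the 7 myelin genes were lowest in replicate 1. The 12 genes were listed as markers of spiral ganglion neurons. The tissue was not sorted, so part of their summed counts may come from other cells. A larger amount of nerve in the dissected piece cannot be told apart here from more RNA per fibre. Whether this amount sets the myelin result was not tested.

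Of 8 markers of satellite and other glia, Kcnj10 (0.79) and Sox9 (0.62) rose and Fabp7 (-0.999) fell, and the sums overlapped, at 92318 to 103328 in Kir2.1-OE and 79013 to 101888 in controls; with the offsets none of the 3 was called (Kcnj10 0.41, Sox9 0.45, Fabp7 -0.54). Of 10 hair cell markers 6 rose, among them Myo15 (1.46) and Myo7a (1.17), but 1 was called with the offsets, and the sums overlapped at 35169 to 42501 and 33636 to 39566. Of 8 fibroblast and endothelial markers 4 rose, led by the endothelial genes Cdh5 (0.99) and Kdr (0.89), with overlapping sums of 112366 to 130589 and 128587 to 139910. Cldn5, also endothelial, was at -0.03 (adjusted p = 0.775) with overlapping pools. The fibroblast genes went both ways. Lum (-0.49, adjusted p = 0.000779) and Dcn (-0.41, adjusted p = 0.00586) were lower in every Kir2.1-OE pool, under 1.5-fold. The collagens Col1a1 (0.71, adjusted p = 0.0334, called) and Col3a1 (0.46, adjusted p = 0.00885, under 1.5-fold) were higher in every Kir2.1-OE pool. With the offsets Col1a1 came to -0.02 and Col3a1 to -0.04, and 2 of the 8 were called higher, Kdr (0.43) no longer among them. With offsets from the median transcript Col1a1 was at 0.87 and Col3a1 at 0.51. Of 8 red cell and macrophage markers 2 fell, Hba-a1 (-1.18) and Alas2 (-1.02), neither with the offsets, and the sums were 12497 to 14380 in Kir2.1-OE and 15723 to 35644 in controls. Hba-a1 alone had 6811 to 8425 counts in Kir2.1-OE and 10560 to 29799 in controls. The macrophage genes went both ways, all under 1.5-fold. Csf1r (0.47, adjusted p = 0.000772), Cx3cr1 (0.24, adjusted p = 0.0471) and Cd68 (0.25, adjusted p = 0.142) were higher. C1qa (-0.21, adjusted p = 0.0467) was lower. With the offsets Csf1r came to 0.07, Cx3cr1 to -0.01, Cd68 to 0.55 and C1qa to 0.05. The part of these cells in the result was not tested. Over the 12 lists 53 of 151 genes tested rose and 3 fell, and with the offsets 27 and 0. With offsets from the median transcript 39 rose and 3 fell.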

How the data were processed

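The labels and the study's methods give 3 Kir2.1-OE and 3 control libraries of poly(A) RNA, sequenced in pairs of reads. The authors mapped reads to mm10 with the nf-core RNA pipeline and deposited expected counts, estimated per gene by Salmon and not divided by length or library size. Tool versions, annotation and strand setting are not given in the sources used here. Reads shared by near-identical genes may have been split between them.

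The values, rounded to whole counts, were fitted for genotype alone on all 6 libraries with R 4.3.3 and its package edgeR 4.0.16 (scaled by TMM, factors 0.984 to 1.01, filterByExpr, quasi-likelihood test, Benjamini-Hochberg adjustment over 15303 genes). Exact permutation tests used scipy 1.17.1. Every pair of libraries within a group differed by more than sampling noise (chi-square per degree of freedom 15.7 to 31.2), and p-values measure the spread between these pools. The length and GC offsets were loess trends (span 0.4) on log length and GC content of a library's log2 distance from the average library, from the longest GENCODE vM21 transcript; of 24411 symbols 23376 matched directly, 678 by an older symbol and 357 not, and the unmatched received no correction. The scripts were tested on simulated data with 200 changed genes. The floor of 3 counts covers counting error only.

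The 7 genes, the lists and the tests were chosen with earlier results of these data known. Named genes were the 7, then in each list up to 4 called genes with the largest change and the most abundant member, then the 5 most alike in profile among genes with a mean count of at least 50. Dnajc7, Kcnj2, Mog, Mobp, Opalin, Myrf, Stmn2, Tubb3, Prph, Pvalb, Dcn and Col3a1, outside that rule, were named after their values were seen. So were Csf1r, Cx3cr1, Cd68, C1qa and Cldn5. Alternatives were DESeq2 1.42.0, limma-voom (limma 3.58.1), other scalings and filters (none, or 10 counts in every library), unrounded counts, a replicate block, the offsets, glmTreat, no fold threshold and leaving out each library. The authors' table of comparisons between genotypes was not used. Some genes that this rule names are not reported here.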

Additional observations from a re-analysis of the deposited data

How the results depend on the processing

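None of the 7 myelin genes changed direction in any of 20 alternatives: of their 140 values, 123 kept their side of the threshold, 11 lost a call and 6 gained one. The number called higher, 4, came to 1 with glmTreat, 6 with no fold threshold, 3 with upper quartile scaling, 1 with offsets from the median transcript, and 2 to 5 with each library left out; it stayed 4 with DESeq2, limma-voom and the replicate block. Over all genes, 2365 higher and 778 lower became 832 and 57 with glmTreat, 4184 and 3590 with no fold threshold, 985 and 524 with the offsets, and 800 and 444 with the block and offsets; lower calls were 1378 with upper quartile scaling, and leaving out each library gave 1878 to 2527 higher and 536 to 1074 lower. Over the 12 lists, 53 higher and 3 lower became 27 and 1 with glmTreat, 85 and 14 with no fold threshold, 27 and 0 with the offsets, and 24 and 1 with the block and offsets, and 47 to 58 and 1 to 3 with each library left out. Of 53 other genes named, 13 values turned: Fasn -0.26 with the offsets and -0.27 with the block as well; Scd2 -0.070 in both and -0.086 with median transcripts; Cdh23 -0.11 and -0.10; Ocm 0.21 in both and 0.13 with median transcripts; Col1a1 -0.024 with the offsets; S100b -0.03 without replicate 2 of Kir2.1-OE and -0.10 without replicate 1 of the controls, in a range up to 0.30 with each library left out. The cause was not tested. Same-numbered pools did not deviate together (r of -0.11, -0.23 and -0.21), so this check gave no sign that the numbers pair them. With 3 pools a group it cannot settle whether they do. The column header of control replicate 1 carries another number than its label, so its place in this check and in the block is uncertain. The replicate block gave 2220 higher and 718 lower. With 3 pools a group, a difference in 1 gene cannot pass an exact test.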
